A study of Homo sapiens with 11 samples.

Results

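The genes described here are 10 that govern how a cell coats, fills and empties its lipid droplets: HILPDA, PLIN2, PLIN3, PLIN4, PLIN5, PNPLA2, G0S2, LPIN1, FABP5 and VLDLR. They were chosen by symbol, from the known roles of their proteins and with earlier results of these data known. Each symbol matched 1 row among the 60676 genes of a table of read counts per gene. The counts come from RWPE1, an immortalized line of non-tumour human prostate epithelial cells, grown in keratinocyte serum-free medium with bovine pituitary extract and EGF. Cells were kept in normoxia (3 libraries) or moved to 1% oxygen for 6 h (3 libraries), 12 h (3 libraries) or 24 h (2 libraries). The normoxic libraries are the 0 h point, and there is no normoxic library at 6, 12 or 24 h. Hours in hypoxia and hours in culture therefore cannot be told apart. The medium of the hypoxic cells also received HEPES buffer, so that low oxygen and the added buffer cannot be told apart. All samples are of this 1 line, and no source states whether the replicates were separate cultures, so the p-values measure only the spread between these samples, which may be technical.

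Lipid droplets are the organelles in which cells keep fatty acids as triglyceride, under a single layer of phospholipid. Perilipins (the PLIN proteins) coat that surface. The lipase ATGL, encoded by PNPLA2, takes the first fatty acid off a triglyceride, and the small proteins HILPDA and G0S2 bind and inhibit it. Lipin 1 (LPIN1) makes the diacylglycerol from which triglyceride is built, the VLDL receptor (VLDLR) takes up lipoproteins, and FABP5 carries fatty acids through the cytosol. Low oxygen is known to slow the burning of fatty acids in mitochondria and to raise droplet stores in many cell types, and HILPDA, PLIN2 and VLDLR are established targets of the hypoxia-inducible factors (HIFs), whose binding motif has the core ACGTG or GCGTG.

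The promoters of 4 members are shown because their genes behaved in 3 different ways below: PLIN2 and PLIN3 were higher in hypoxia, PLIN4 was lower, and PNPLA2 was not called. Of the 10 genes, 8 had an entry in the RefSeq promoter table (GRCh38.p14), which holds 250 bases before and 50 after a transcription start. HILPDA and FABP5 had no entry. Each sequence reads 5′ to 3′ on the strand of the gene and ends at the base before the start or before an annotated UTR. Capitals mark that core in either orientation (CACGT and CACGC are the reversed forms). The intervals are chr9:19127493-19127742 (minus strand) for PLIN2, chr19:4867695-4867917 (minus) for PLIN3, chr19:4518487-4518736 (minus) for PLIN4 and chr11:818664-818913 (plus) for PNPLA2.
PLIN2: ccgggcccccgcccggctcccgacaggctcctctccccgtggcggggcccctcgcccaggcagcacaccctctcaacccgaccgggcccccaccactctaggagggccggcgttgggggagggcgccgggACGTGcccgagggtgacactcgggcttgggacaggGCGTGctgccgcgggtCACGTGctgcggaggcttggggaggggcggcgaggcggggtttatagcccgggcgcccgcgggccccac
PLIN3: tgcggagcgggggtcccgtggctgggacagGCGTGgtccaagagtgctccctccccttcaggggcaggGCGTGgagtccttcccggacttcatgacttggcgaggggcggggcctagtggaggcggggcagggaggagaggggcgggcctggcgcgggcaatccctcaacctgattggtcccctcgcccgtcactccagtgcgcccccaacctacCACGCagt
PLIN4: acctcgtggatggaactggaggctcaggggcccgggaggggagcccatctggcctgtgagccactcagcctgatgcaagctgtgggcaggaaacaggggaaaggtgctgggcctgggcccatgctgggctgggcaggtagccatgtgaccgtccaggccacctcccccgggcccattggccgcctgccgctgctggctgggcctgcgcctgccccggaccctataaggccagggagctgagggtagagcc
PNPLA2: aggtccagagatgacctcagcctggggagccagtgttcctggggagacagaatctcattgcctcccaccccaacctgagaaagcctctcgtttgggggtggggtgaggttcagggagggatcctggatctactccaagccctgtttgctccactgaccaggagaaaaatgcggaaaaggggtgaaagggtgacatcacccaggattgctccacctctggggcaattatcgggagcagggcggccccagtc

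In the full 300-base windows, PLIN2 held 5 matches, 3 of ACGTG and 2 of GCGTG. A pair of these overlap, since the palindrome CACGTG counts on both strands, and 1 lies across the start itself and is not in capitals. VLDLR also held 5, all GCGTG, G0S2 held 4, PLIN3 held 3 and PLIN5 held 2. Of the 3 LPIN1 promoters in the table, 2 held 1 match each and the other held 0. PLIN4 and PNPLA2 held 0. Matches are common: 48.4% of all 35116 promoters of this length held at least 1, 10.1% held at least 3 and 1.98% at least 5. These shares are not matched for base content. G and C made up 76.7% of the PLIN2 window, 79.0% of VLDLR, 69.0% of PLIN3, 70.7% of PLIN4 and 59.3% of PNPLA2. The median of all promoters was 58.7%. A match is a description of letters only, and G0S2, with 4 matches, had 5 counts or fewer in every library.

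Libraries held 27496009 to 49488345 counts. Levels are CPM, counts relative to a library size that TMM scaling has corrected for differences in composition. TMM factors ran from 1.32 in normoxia down to 0.851, with the second 24 h library apart at 0.539. The Euclidean distance between the 24 h replicates over the log2 CPM of the tested genes was 139.9, against 40.3 to 87.1 within the other groups, so 24 h values are also given without that library. The basal epithelial markers KRT5, KRT14, TP63 and ITGB4 were all present, with a summed level of 7594 to 10419 CPM in normoxia and 10659 to 20367 in hypoxia, although TP63 went from between 218 and 259 CPM to between 67.0 and 143. Of the luminal markers, KRT8 was at 132 to 148 CPM in normoxia and 311 to 1138 in hypoxia, and KRT18 at 93.8 to 108 and 286 to 657, while KLK3 was at 0 in all 11 libraries. Markers of fat cells, which are rich in droplet genes, summed to 1.30 to 1.36 CPM in normoxia and 0.616 to 1.97 in hypoxia, with ADIPOQ and CIDEC at 2 counts or fewer throughout. Of the fibroblast markers, 3 of 4 did not exceed 3 counts, and COL1A1 carried the sum (47.1 to 60.5 CPM in normoxia, 27.8 to 46.2 in hypoxia). Leukocyte markers summed to 0.670 to 1.03 CPM in normoxia and 1.71 to 3.38 in hypoxia. Of these, CD14 alone rose (0.506 to 0.553 CPM in normoxia, 1.67 to 3.38 in hypoxia). PTPRC had 2 to 13 counts in normoxia and at most 3 in hypoxia, and CD68 had 5 to 10 and at most 2. The part of the keratin, TP63, COL1A1 and CD14 shifts in the results below was not tested.

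Of the 10 members, 8 passed the filter on low counts and were tested. Against normoxia, 5 were higher and 1 lower at 6 h, 6 were higher and 1 lower at 12 h, and 6 were higher and 1 lower at 24 h (edgeR quasi-likelihood test, adjusted p under 0.05 over 19981 genes). Of all genes tested, 25.1% were called higher and 27.7% lower at 6 h, 24.2% and 27.1% at 12 h, and 29.9% and 31.3% at 24 h. The median log2 fold change of the 8 was 0.57, 0.99 and 1.11, against -0.0021, -0.033 and -0.065 for all genes tested. The members were chosen with earlier results of these data known, so their calls and medians were not tested against those of all genes. These medians depend on the scaling. With library size alone the median gene moved by -0.32, -0.50 and -0.97, and the split of all calls went from 5018 higher and 5534 lower to 2713 and 7130 at 6 h, from 4827 and 5409 to 2116 and 8444 at 12 h, and from 5974 and 6261 to 2222 and 11305 at 24 h. Changes below are therefore relative to the bulk of the transcriptome. In RNA from whole cultures, a change in the number of cells of a type and a change in RNA per cell cannot be told apart.

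**Figure D1:**
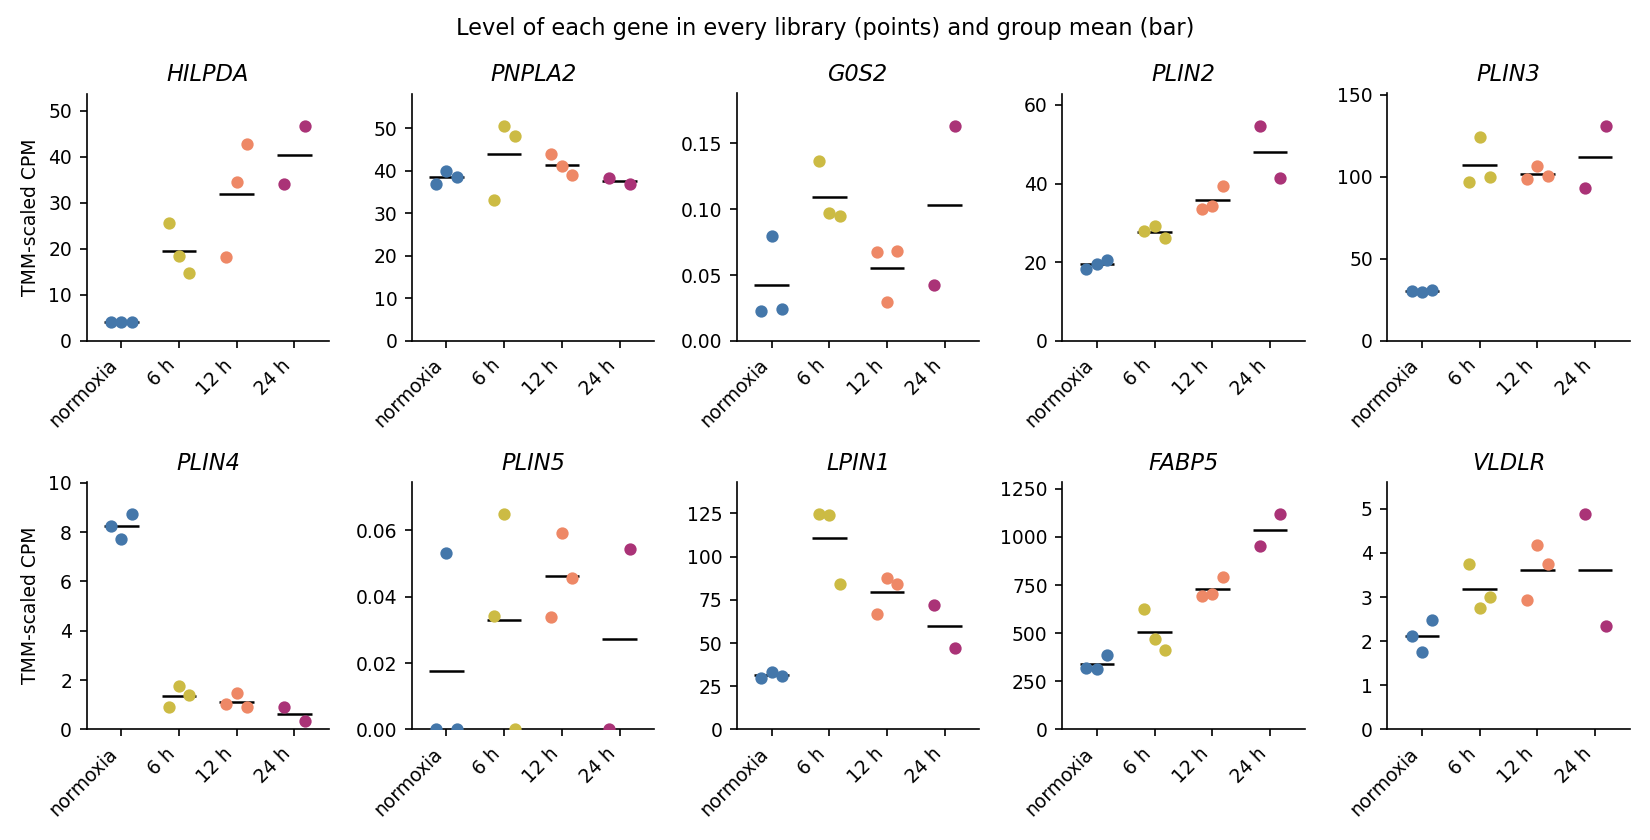
Level of each of the 10 genes in every library, as TMM-scaled CPM on linear axes that start at 0 (points, 1 per library; bars, group means; 3 libraries per group, 2 at 24 h). HILPDA, PLIN2, PLIN3, LPIN1 and FABP5 lie above normoxia in all 8 hypoxic libraries and PLIN4 lies below in all 8, while the PLIN5 and G0S2 axes span only a few counts.

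The lipolysis brake HILPDA, which inhibits ATGL at the droplet surface, showed the largest rise among the 8. Its gene (ENSG00000135245) lies at chr7:128455849-128458418 on the plus strand. In normoxia its levels were 4.16, 4.02 and 4.20 CPM. They were 25.6, 18.5 and 14.7 CPM at 6 h, 18.3, 34.6 and 42.8 CPM at 12 h, and 34.1 and 46.7 CPM at 24 h. Every hypoxic library was thus above every normoxic one, while the 12 h libraries overlapped with those of 6 h and 24 h. The rise was 4.73-fold at 6 h (95% interval 3.04 to 7.36), 7.73-fold at 12 h (4.93 to 12.1) and 9.77-fold at 24 h (6.04 to 15.8). On the log2 scale these are 2.24 (SE 0.29), 2.95 (SE 0.30) and 3.29 (SE 0.32), with edgeR adjusted p of 5.75e-05, 1.31e-05 and 5.17e-06. Without the second 24 h library the 24 h log2 change was 3.02. Of the exonic bases of HILPDA, 13.2% also belong to HILPDA-AS1 or ENSG00000273184, and reads there cannot be assigned to 1 gene. Genes on the opposite strand cover 10.5% of those of PNPLA2 and 8.24% of those of VLDLR, and since the strand setting of the counting is not given, their reads may be included. All positions are in GRCh38.

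The lipase PNPLA2 itself (ENSG00000177666, chr11:818914-825573, plus strand) gave 36.9, 39.9 and 38.6 CPM in normoxia and 33.3, 50.6 and 48.1 CPM at 6 h. At 12 h it gave 43.98, 41.0 and 39.1 CPM, and at 24 h 38.3 and 36.9 CPM. The hypoxic libraries fell on both sides of the normoxic ones. The log2 changes were 0.19 (95% interval -0.14 to 0.53), 0.10 (-0.23 to 0.44) and -0.03 (-0.41 to 0.34), and none was called (edgeR adjusted p 0.304, 0.592 and 0.883). These intervals leave room for a change of up to about 1.44-fold at 6 h. The first 6 h library was the lowest of the 11, and without it the 6 h value was 0.36 (adjusted p = 0.0339). With library size alone the 24 h value was -0.94 (adjusted p = 0.00383), beside a shift of -0.97 for the median gene, and the 6 h and 12 h values turned to -0.13 and -0.36.

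Set against each other in the same library, HILPDA and PNPLA2 gave a ratio of CPM per kilobase of exons that is free of library scaling. It was 0.209, 0.187 and 0.202 in normoxia, 1.43, 0.676 and 0.564 at 6 h, 0.770, 1.56 and 2.03 at 12 h, and 1.65 and 2.34 at 24 h. All 8 hypoxic libraries were above all 3 normoxic ones. The mean log2 ratio went from -2.33 ± 0.08 (SD, n = 3) in normoxia to -0.29 ± 0.71 (n = 3), 0.43 ± 0.72 (n = 3) and 0.97 ± 0.36 (n = 2). The hypoxic mean was 2.62 log2 units above the normoxic mean (exact two-sided permutation test over the 11 libraries, p = 0.0121, the smallest this design allows). Since PNPLA2 was not called, this difference largely restates the HILPDA rise above and is not a separate result. Whichever library was left out, the difference stayed between 2.49 and 2.78.

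G0S2, the other inhibitor of ATGL (ENSG00000123689, chr1:209675412-209676390, plus strand), had 1, 3 and 1 counts in normoxia, 4, 3 and 5 at 6 h, 2, 1 and 3 at 12 h, and 1 and 3 at 24 h. These values are at or near the floor of 3 counts, which corresponds to 0.0568 to 0.163 CPM depending on the library. G0S2 did not pass the filter, and no change was detectable at this depth. Of the pair of ATGL inhibitors, HILPDA alone had reads well above that floor.

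**Figure D2:**
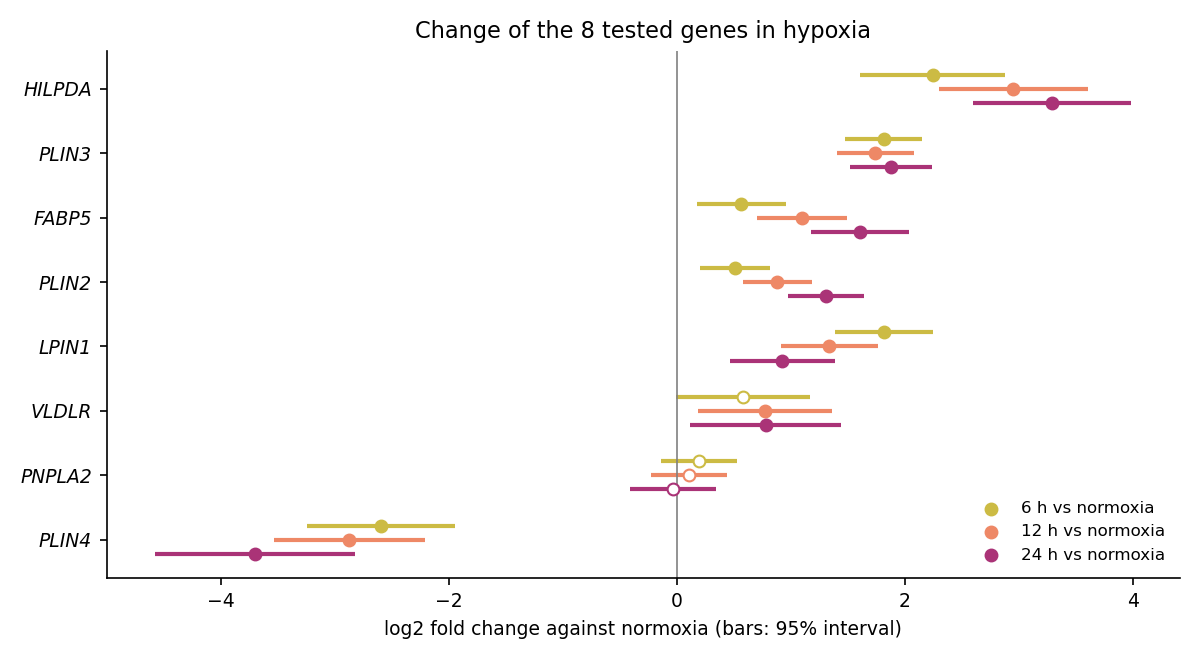
Log2 fold change against normoxia of the 8 tested genes at 6, 12 and 24 h (points) with 95% intervals (bars), from the edgeR fit on all 11 libraries. Filled points were called at an adjusted p under 0.05 and open points were not. HILPDA, FABP5 and PLIN2 step up from 6 h to 24 h, LPIN1 steps down, PLIN3 lies between 1.74 and 1.88, PNPLA2 stays near 0 and PLIN4 lies at -2.59 or below.

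Among the droplet coat proteins, the perilipins went in different directions. PLIN2, also called adipophilin, is the coat protein found on droplets of most cells outside fat tissue (ENSG00000147872, chr9:19108375-19149290, minus strand). It gave 18.3, 19.5 and 20.5 CPM in normoxia, 27.8, 29.1 and 26.1 CPM at 6 h, 33.5, 34.4 and 39.3 CPM at 12 h, and 54.7 and 41.3 CPM at 24 h. No 2 of the 4 groups overlapped. The rise was 1.42-fold at 6 h (log2 0.51, SE 0.14), 1.84-fold at 12 h (0.88, SE 0.14) and 2.47-fold at 24 h (1.30, SE 0.15), with edgeR adjusted p of 0.00842, 0.000298 and 1.87e-05. Without the second 24 h library the 24 h value was 1.47. With library size alone the 3 values were 0.19, 0.41 and 0.43 and none was called (adjusted p 0.506, 0.14 and 0.136).

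PLIN3, or TIP47, moves between the cytosol and young droplets (ENSG00000105355, chr19:4838341-4867694, minus strand). Its levels were 30.8, 29.8 and 30.9 CPM in normoxia. In hypoxia they were 96.8, 124 and 100.2 CPM at 6 h, 98.7, 106.5 and 100.5 CPM at 12 h, and 93.0 and 131 CPM at 24 h. All hypoxic libraries were more than 3 times the normoxic level, and the 3 hypoxic groups overlapped. The log2 changes were 1.81 (SE 0.15), 1.74 (SE 0.15) and 1.88 (SE 0.17), with edgeR adjusted p of 2.83e-06, 5.75e-06 and 3.02e-06. Without the second 24 h library the 24 h value was 1.59. Between 6 h and 24 h PLIN3 differed by 0.07 log2 units (95% interval -0.30 to 0.43), a sign that turned with library size alone (-0.58), without the filter on low counts (-0.012), and without either the first 6 h library (-0.0056) or the second 24 h library (-0.20). An unnamed gene on the opposite strand (ENSG00000267484) covers 18.3% of its exonic bases.

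PLIN4, a coat protein best known from fat and muscle cells, fell. It lies on chromosome 19 as well (ENSG00000167676, chr19:4502192-4518486, minus strand), 4044 bases from PLIN5, in a stretch of 365503 bases that also ends in PLIN3. In normoxia PLIN4 gave 8.27, 7.72 and 8.72 CPM. It gave 0.922, 1.75 and 1.40 CPM at 6 h, 1.01, 1.48 and 0.890 CPM at 12 h, and 0.898 and 0.327 CPM at 24 h. The highest hypoxic library was thus far below the lowest normoxic one. The 24 h values rest on 21 and 6 counts, against 290 to 363 in normoxia. The fall was 6.03-fold at 6 h, 7.31-fold at 12 h and 13.0-fold at 24 h (log2 -2.59, SE 0.30, then -2.87, SE 0.31, and -3.69, SE 0.40), with edgeR adjusted p of 2.26e-05, 1.77e-05 and 1.11e-05. Without the second 24 h library the 24 h value was -3.21, and without the first it was -4.70.

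PLIN5, the perilipin of heart and other tissues that burn much fat (ENSG00000214456, chr19:4522531-4535224, minus strand), had 0, 2 and 0 counts in normoxia and 0 to 2 counts in each of the 8 hypoxic libraries. It did not pass the filter, and no change was detectable at this depth. A count of 0 allows up to 3 counts, again 0.0568 to 0.163 CPM.

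Scaled by exonic length, the perilipin transcripts summed to 16.3 ± 0.379 CPM per kilobase in normoxia (SD, n = 3) and to 44.9 ± 5.77, 44.5 ± 1.56 and 50.6 ± 7.90 after 6, 12 and 24 h of hypoxia (n = 3, 3 and 2). PLIN3 made up the largest part in every library. Its share of that sum was 68.4 ± 1.05% in normoxia, 87.1 ± 1.03% at 6 h, 83.6 ± 1.28% at 12 h and 80.3 ± 6.91% at 24 h. The share of PLIN4 went from 7.77 ± 0.310% to 0.460 ± 0.0996%, 0.388 ± 0.0967% and 0.198 ± 0.154%. The share of PLIN2, although its level rose, was 22.6, 24.4 and 24.5% in normoxia, 13.5, 11.3 and 12.4% at 6 h, 15.6, 14.9 and 17.6% at 12 h, and 24.2 and 14.7% at 24 h. Of the 8 hypoxic libraries, 7 were below all normoxic ones, and the first 24 h library was within the normoxic range. The hypoxic mean was lower by 8.30 percentage points (15.5 against 23.8%, exact two-sided permutation test over the 11 libraries, p = 0.0242, where the smallest possible p is 0.0121). Since PLIN3 is the largest part of the sum and rose by more than PLIN2, this difference largely restates the PLIN3 rise above. It is not a separate result. With the length of the canonical transcript, an alternative added after the data were seen, the difference was -12.5 points. The shares themselves also depend on the length used. In normoxia PLIN2 and PLIN3 were at 10.2 and 13.7 CPM per kilobase of canonical transcript, against 3.88 and 11.1 per kilobase of exons. Leaving out the second or the third normoxic library gave -8.02 and -7.96 points, each with an exact p of 0.0889.

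**Figure D3:**
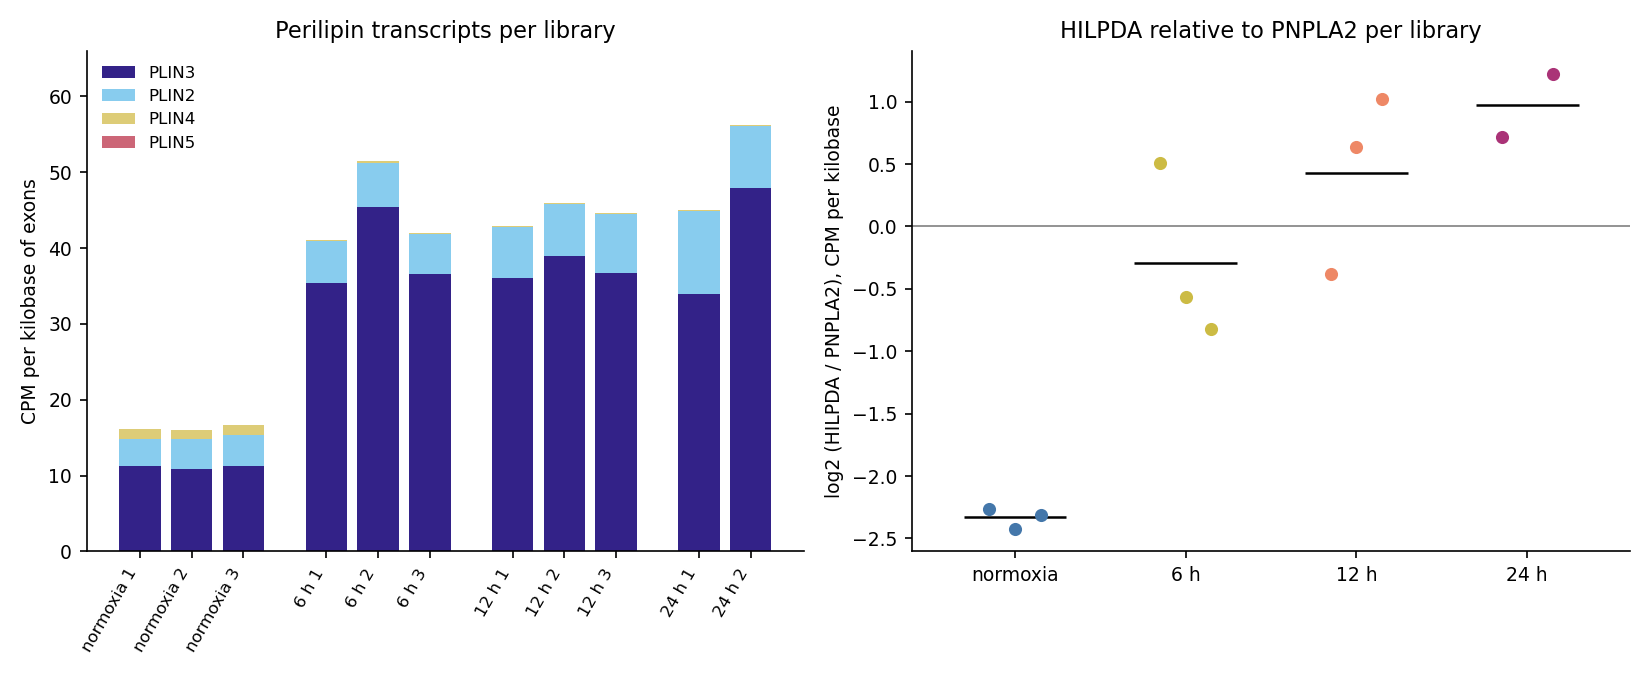
Left, perilipin transcripts in each library in CPM per kilobase of exons, stacked as PLIN3, PLIN2, PLIN4 and PLIN5 on an axis from 0. The stacks stand between 16.0 and 16.7 in normoxia and from 41.0 to 56.2 in hypoxia, with PLIN3 the largest part of each. Right, log2 ratio of HILPDA to PNPLA2 per library (points) with group means (bars). The 3 normoxic libraries lie between -2.42 and -2.26 and all 8 hypoxic libraries at -0.83 or above.

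In triglyceride synthesis, LPIN1 encodes lipin 1, a phosphatidate phosphatase that also acts with transcription factors in the nucleus (ENSG00000134324, chr2:11677595-11827409, plus strand). It gave 30.0, 33.4 and 30.9 CPM in normoxia. It gave 124, 124 and 84.2 CPM at 6 h, 66.6, 87.3 and 84.3 CPM at 12 h, and 72.2 and 47.2 CPM at 24 h. All hypoxic libraries were above all normoxic ones, with the highest group at 6 h. The log2 changes against normoxia were 1.82 (SE 0.20), 1.34 (SE 0.20) and 0.92 (SE 0.21), or 3.52-fold, 2.52-fold and 1.90-fold, with edgeR adjusted p of 1.50e-05, 0.000168 and 0.00248. The 24 h value was 1.18 without the second 24 h library and 0.53 without the first. With library size alone the 24 h value was 0.075 (adjusted p = 0.839).

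FABP5, the epidermal fatty acid binding protein, was the most abundant member per kilobase of exons in every group (179 ± 21.1 CPM per kilobase in normoxia, SD, n = 3). Its gene (ENSG00000164687) lies on chromosome 8 (81280536 to 81284777, plus strand). The libraries gave 319.8, 315 and 387 CPM in normoxia, 628, 471 and 413 CPM at 6 h, 694, 705 and 793 CPM at 12 h, and 953 and 1118 CPM at 24 h. No pair of groups overlapped. The rise was 1.48-fold at 6 h, 2.14-fold at 12 h and 3.04-fold at 24 h (log2 0.56, SE 0.18, then 1.10, SE 0.18, and 1.60, SE 0.20), with edgeR adjusted p of 0.0190, 0.000382 and 2.66e-05. Without the second 24 h library the 24 h value was 1.46. The 6 h call was lost without the first normoxic (adjusted p = 0.0776), the second normoxic (0.0784) or the first 6 h library (log2 0.38, adjusted p = 0.0933), and with library size alone (log2 0.25, adjusted p = 0.303).

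FABP5 has near-identical copies in the genome. Of the 75-base windows pooled over all its annotated transcripts, 18.4% occur exactly in 1 or more of 6 pseudogenes. These transcripts span 1904 exonic bases, whereas the canonical transcript has 676, and the share within that transcript was not computed and may be larger. The table lists 15 FABP5 pseudogenes, which together held 57.9 to 63.2% of the counts of the family in each library, led by FABP5P7 with 10314 to 29633 counts. How the counting divided shared reads is not stated, so the level of FABP5 itself is uncertain. Summed over FABP5 and its pseudogenes, an alternative added after the data were seen, the mean was 917 ± 108 CPM in normoxia (SD, n = 3) and 1305 ± 239, 1921 ± 145 and 2606 ± 69.6 CPM after 6, 12 and 24 h (n = 3, 3 and 2). The log2 changes of the sum were 0.51, 1.07 and 1.51 (edgeR adjusted p 0.0318, 0.000493 and 4.46e-05).

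VLDLR, a receptor that takes up triglyceride-rich lipoprotein particles (ENSG00000147852, chr9:2621182-2660056, plus strand), had the lowest level of the tested members in normoxia. It gave 2.12, 1.76 and 2.47 CPM in normoxia, 3.76, 2.75 and 3.01 CPM at 6 h, 2.94, 4.18 and 3.74 CPM at 12 h, and 4.87 and 2.34 CPM at 24 h. The 6 h and 12 h libraries were all above normoxia, whereas the second 24 h library was within the normoxic range. The log2 changes were 0.58 (SE 0.27), 0.77 (SE 0.27) and 0.78 (SE 0.31), with edgeR adjusted p of 0.0904, 0.0301 and 0.0419. The 6 h value was not called in the fit of all libraries, but was with the 2 groups alone (adjusted p = 0.0306) or without either 24 h library (0.0288 and 0.0265). The 24 h value turned on 1 library: it was 0.086 without the first 24 h library (adjusted p = 0.825), 1.18 without the second (0.00262), and -0.05 with library size alone. The 24 h call was also lost without the first or the second normoxic, the second 6 h, or the second or the third 12 h library (adjusted p 0.0512 to 0.129), with only the 2 groups in the fit (0.106), with limma-voom (0.0657), under either other filter on low counts (0.071 and 0.0872) and with the replicate block (0.0621). The 12 h call was lost without the first or the second normoxic or the second or the third 12 h library (adjusted p 0.0769 to 0.123), with at least 10 counts required in every library (0.0568), and with library size alone (log2 0.31, adjusted p = 0.48).

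Per kilobase of exons, the order of the mean levels in normoxia was FABP5, PLIN3, PNPLA2, PLIN2, LPIN1, HILPDA, PLIN4, VLDLR, G0S2 and PLIN5. At 24 h it was FABP5, PLIN3, HILPDA, PNPLA2, PLIN2, LPIN1, VLDLR, G0S2, PLIN4 and PLIN5. HILPDA therefore moved from 1.99 ± 0.0458 CPM per kilobase in normoxia (SD, n = 3) to 19.5 ± 4.31 at 24 h (n = 2), from below to above PNPLA2 (10.0 ± 0.396 and 9.82 ± 0.254) and PLIN2 (3.88 ± 0.223 and 9.58 ± 1.89). PLIN4 moved from 1.27 ± 0.0768 to 0.0941 ± 0.0621, a level whose spread overlaps that of G0S2 (0.118 ± 0.0974). PNPLA2 and PLIN2 at 24 h did not differ beyond their spread, and their order turned with the length of the canonical transcript, as did that of PLIN3 and PNPLA2 in normoxia. With that length, HILPDA and PLIN2 at 24 h were at 29.6 ± 6.54 and 25.3 ± 4.99 CPM per kilobase (SD, n = 2). These means did not differ beyond their spread, and HILPDA lay below PLIN2 in the first 24 h library. The place of HILPDA above PLIN2 was thus clear of the spread only with the exonic length.

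Comparisons within hypoxia describe how levels moved between the times, without a normoxic library at those times to separate hypoxia from hours in culture. Between 6 h and 12 h, 0 of the 8 tested members were called in either direction (edgeR, 4 at an unadjusted p under 0.05, 1 higher with DESeq2), where 1.88% of all genes tested were called higher and 3.07% lower. Between 12 h and 24 h, 0 were called (2 at an unadjusted p under 0.05, 2 higher with DESeq2), where 15.1% were called higher and 13.3% lower. The 0 between 6 h and 12 h depended on a single library. Without the first 12 h library HILPDA was called higher at 12 h than at 6 h (log2 0.98, adjusted p = 0.0414). In that fit 350 of all 19908 genes tested were called higher and 277 lower. Leaving out a 24 h library leaves 1 at that time, so only effect sizes are given for those fits. Many more of all genes were called between 6 h and 12 h in them. Without the first or the second 24 h library, this change was 0.37 and 0.38 for PLIN2 (0.37 with all libraries). It was 0.53 and 0.55 for FABP5 (0.54 with all) and -0.48 and -0.46 for LPIN1 (-0.48 with all). Between 12 h and 24 h, the change of PLIN2 was 0.60 without the second 24 h library (0.42 with all libraries). Without the first 24 h library it was 0.59 for FABP5 (0.50 with all), -1.80 for PLIN4 (-0.82) and -0.78 for LPIN1 (-0.41). The median gene moved by -0.12 in that fit.

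The comparison of 24 h with 6 h was added after the levels had been seen. In it 3 members were called higher and 2 lower, where 22.1% of all genes were called higher and 20.3% lower. PLIN2 was higher by 0.79 (SE 0.15, edgeR adjusted p = 0.0016), FABP5 by 1.04 (SE 0.20, adjusted p = 0.00148) and HILPDA by 1.05 (SE 0.30, adjusted p = 0.0152) on the log2 scale. LPIN1 was lower (-0.89, SE 0.22, adjusted p = 0.00673), and so was PLIN4 (-1.10, SE 0.41, adjusted p = 0.0467). For all of these the 24 h and 6 h libraries did not overlap, for PLIN4 narrowly (0.898 CPM at most at 24 h, 0.922 CPM at least at 6 h). With 2 libraries against 3 this is common. It held for 43 of the 77 other genes of fatty acid storage and use described below, and adds little to the calls. The HILPDA call was lost without the third 6 h (adjusted p = 0.0536) or the second 24 h library (0.0925). The PLIN4 call was lost without any 1 of the 3 normoxic libraries, the second or the third 6 h, the first or the third 12 h, or the second 24 h library (adjusted p 0.0533 to 0.285), with limma-voom (0.0567), with only the 2 groups in the fit (0.152) and with the replicate block (0.0829). The LPIN1 call was lost with only the 2 groups in the fit (0.0552). With library size alone HILPDA, PLIN2 and FABP5 gave 0.40, 0.24 and 0.42 and were not called (adjusted p 0.319, 0.444 and 0.121). PNPLA2, not called with all libraries (-0.23, adjusted p = 0.316), was called lower without the first 6 h library (-0.39, adjusted p = 0.0455).

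A further 77 genes of fatty acid storage and use were read in the same fit, as 6 lists, and 66 of them passed the filter. Against normoxia 15 were higher and 17 lower at 6 h, 11 and 17 at 12 h, and 19 and 22 at 24 h, and the shares of all genes called are those given above. The median log2 change of the 66 was -0.037, -0.17 and -0.33. The members and these genes thus differed in the balance of calls, with 6 of 8 and 19 of 66 called higher at 24 h, a difference that was not tested because the members were picked with results of these data known. The counts at 12 h moved with single libraries, from 9 to 19 higher and from 11 to 26 lower, and were 19 and 25 without the second 24 h library. The 24 h counts were 18 higher and 19 lower without it. With library size alone the 24 h values of SOAT1, DGAT1, ABHD5, ACSL4, FADS2 and HADHB, called higher below, were negative, and those of ABHD6 (0.043), ELOVL6 (0.035) and AUP1 (0.25) were not called (adjusted p 0.862, 0.906 and 0.163). HADHA was then called at 24 h (0.63, adjusted p = 0.0265) but not at 6 h or 12 h (0.18 and 0.45).

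**Figure D4:**
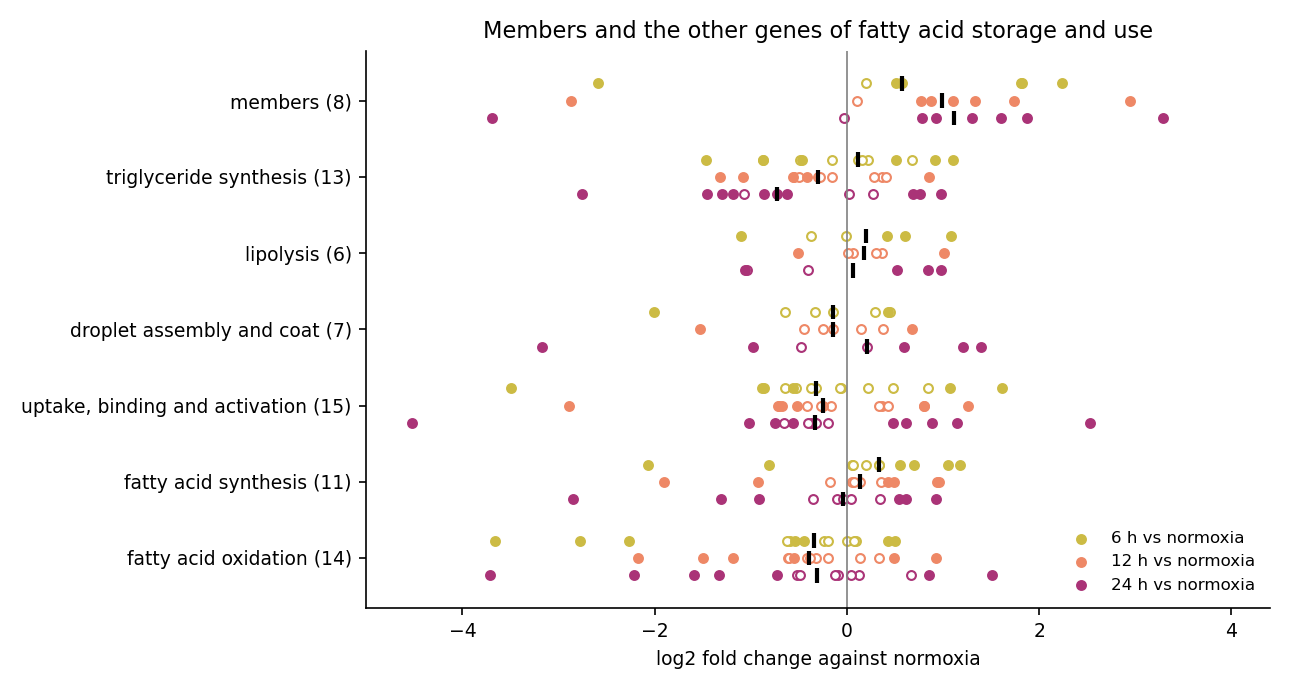
Log2 fold change against normoxia at 6, 12 and 24 h of the members and of 6 lists of other genes of fatty acid storage and use (1 point per tested gene, number tested in brackets, vertical bar for the median). Filled points were called at an adjusted p under 0.05. The members' medians lie at 0.57, 0.99 and 1.11, to the right of those of the 6 lists, and the lowest points, GPIHBP1 and PLIN1 among them, rest on few counts.

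The list of triglyceride synthesis also holds SOAT1 and SOAT2, which esterify cholesterol. Of its 13 tested genes, 3 were higher and 4 lower at 6 h, 1 and 4 at 12 h, and 3 and 7 at 24 h (median log2 change 0.11, -0.30 and -0.73). These counts and medians include SOAT1, which was the only gene of the list called higher at 12 h. The last step of triglyceride synthesis is carried out by the acyltransferases DGAT1 and DGAT2. DGAT2 fell, from 10.8 ± 1.21 CPM in normoxia (SD, n = 3) to 3.94 ± 0.740 at 24 h (n = 2, log2 -1.45, SE 0.22, edgeR adjusted p = 0.000111). DGAT1 was higher at 24 h (0.98, SE 0.22, adjusted p = 0.00221), by 0.38 without the second 24 h library and 1.34 without the first. LPIN3, a paralogue of LPIN1, fell at all 3 times, to -2.76 at 24 h (SE 0.24, adjusted p = 2.37e-06), and thus moved opposite to LPIN1. SOAT1, which esterifies cholesterol for storage in droplets, was higher at all 3 times (1.10, 0.86 and 0.69, adjusted p 9.70e-06, 7.61e-05 and 0.000435).

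Of the 6 other lipolysis genes, all of them tested, 3 were higher and 1 lower at 6 h, 1 and 1 at 12 h, and 3 and 1 at 24 h (median 0.20, 0.18 and 0.059). ABHD5, the co-activator of ATGL, was higher at 6 h (0.61, SE 0.17, edgeR adjusted p = 0.0101) and 24 h (0.84, SE 0.19, adjusted p = 0.00213), and at 12 h gave 0.37 (adjusted p = 0.0908). LIPE, the hormone-sensitive lipase that acts after ATGL, was lower at 24 h, at 2.66 ± 0.250 CPM against 5.52 ± 0.0669 in normoxia (-1.06, SE 0.20, adjusted p = 0.000736). MGLL, which cleaves the last fatty acid, gave -0.40 at 24 h and was not called (adjusted p = 0.0528), but was without the first 24 h library (-0.68, adjusted p = 0.00386) and with DESeq2 (-0.38, adjusted p = 0.0368). ABHD6, another monoacylglycerol lipase, was higher at all 3 times (1.09, 1.01 and 0.98).

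Of 12 genes of droplet assembly and coat, 7 were tested, with 1 higher and 1 lower at 6 h, 1 and 1 at 12 h, and 3 and 2 at 24 h (median -0.14, -0.14 and 0.21). PLIN1, the perilipin of fat cells, was low in normoxia, with 24 to 32 counts, and lower in hypoxia, with between 4 and 11 counts at 6 h and 12 h and no more than 2 at 24 h (edgeR adjusted p 0.000269, 0.00155 and 0.000198). It thus went the way of PLIN4 and not of PLIN2 and PLIN3. AUP1, a protein of the droplet and endoplasmic reticulum surface, was higher at 24 h (1.21, SE 0.15, adjusted p = 3.00e-05).

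Of 20 genes of uptake, binding and activation, 15 were tested, with 2 higher and 4 lower at 6 h, 2 and 5 at 12 h, and 5 and 4 at 24 h (median -0.32, -0.25 and -0.33). LRP8, a receptor close in kind to VLDLR, gave -0.06 and -0.17 at 6 and 12 h, neither called (edgeR adjusted p 0.854 and 0.613), and was lower at 24 h (-1.02, adjusted p = 0.0116), a call lost without the first 24 h library (-0.71, adjusted p = 0.0731). ACSL4, which activates fatty acids with coenzyme A, was higher at all 3 times (1.08, 0.80 and 0.88). SLC27A3, of the fatty acid transport family, was lower at 24 h (-0.75, adjusted p = 0.0127), a call lost without the first 24 h library (-0.52, adjusted p = 0.0642). GPIHBP1, which anchors lipoprotein lipase, fell from 22 to 29 counts in normoxia to at most 4 at 6 h, 8 at 12 h and 1 at 24 h (adjusted p 0.000602, 0.00156 and 0.00204).

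Of 11 fatty acid synthesis genes, 4 were higher and 2 lower at 6 h, 4 and 2 at 12 h, and 3 and 3 at 24 h (median 0.33, 0.14 and -0.040). ELOVL6, which lengthens fatty acids, and FADS2, which desaturates them, were higher at 24 h by 0.93 (edgeR adjusted p = 0.000736) and 0.54 (adjusted p = 0.0123), the latter not called without a filter on low counts (0.125) or with at least 10 counts in every library (0.0516). ACACB, the acetyl-CoA carboxylase whose product restrains import into mitochondria, fell from 18.6 ± 1.43 CPM to 2.53 ± 1.57 at 24 h (-2.85, SE 0.33, adjusted p = 1.74e-05). SREBF1, the transcription factor of lipid synthesis, was lower at all 3 times (-0.81, -0.93 and -0.92).

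Of 14 fatty acid oxidation genes, 2 were higher and 5 lower at 6 h, 2 and 4 at 12 h, and 2 and 5 at 24 h (median -0.34, -0.40 and -0.31). CPT2, which completes the entry of fatty acids into mitochondria, was at 4.45 ± 0.352 CPM in normoxia and 0.980 ± 0.540 at 24 h (-2.21, SE 0.38, edgeR adjusted p = 0.000299). CPT1B, the muscle form of the enzyme that starts that entry, was lower by more (-3.71 at 24 h, adjusted p = 1.09e-05), but 66.4% of its exonic bases belong also to the readthrough gene CHKB-CPT1B. HADHA and HADHB, the subunits of the trifunctional protein of β-oxidation, were higher at all 3 times, HADHA by 0.50, 0.92 and 1.51 and HADHB by 0.43, 0.49 and 0.85 (the 6 h call of HADHB was lost without the third normoxic library, adjusted p = 0.0515).

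The genes nearest to a member in their 3 log2 changes against normoxia were sought among 13938 named genes with a mean of at least 1 CPM, as a description over 3 values that share the normoxic libraries. For HILPDA they were TNFSF9, NFKBIA and GPER1, at Euclidean distances of 0.313, 0.319 and 0.345. For PLIN2 they were PRIM2 (0.0507), SEC13 (0.0538) and ACOT7 (0.0613), and for VLDLR they were PRSS8 (0.0248), PIGT (0.0671) and USB1 (0.0761). The nearest neighbour of HILPDA was thus farther from it than any of those listed for PLIN2 or VLDLR was from theirs. The distance is not scaled to the size of the changes, which were larger for HILPDA. It therefore does not measure how distinct the time pattern of HILPDA is.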

How the data were processed

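RNA longer than 200 bases from 11 RWPE1 libraries was read as 75-base single ends on a NextSeq instrument, from a stranded kit and, per the labels, 1 library batch. Another 24 h library was not analysed here. The authors trimmed reads with Trimmomatic, aligned them with STAR to GRCh38 and deposited raw counts per gene from featureCounts, whose setting for strand and for reads with several alignments is not given in the sources used here. Groups came from the sample titles.

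From these counts, edgeR 4.0.16 (R 4.3.3) fitted all libraries by time point with TMM scaling and the quasi-likelihood test. filterByExpr kept 19981 of the 39835 genes with a count (minimum 10, total 15), and p-values were Benjamini-Hochberg adjusted over them with a threshold of 0.05. Of 60676 gene IDs, 60357 were in GENCODE 44, which gave positions and exonic lengths. Some items the rules below would name are not reported here. Ratios were compared by exact permutation. Intervals are 95%, and the floor of 3 counts covers counting error only. The G0S2 to PNPLA2 ratio was planned but left out, since G0S2 was at the floor. Scripts were tested on simulated data.

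The members and gene lists were chosen with earlier results of these data known. Named genes were the 10 members, in each list up to 2 highest and 2 lowest at 24 h among those called in the same direction at all 3 times, genes tied to a member by role, and the 3 genes most like a member. Alternatives were limma-voom 3.58.1, DESeq2 1.42.0, other scalings and filters, only the 2 groups compared, a replicate block and leaving out each library.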

Additional observations from a re-analysis of the deposited data

Results flagged for a closer look

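Each result here is a difference between 2 times of hypoxia, tested in the edgeR fit with Benjamini-Hochberg adjustment and given on the log2 scale, later minus earlier. Since both times are set against the same normoxic libraries, it is also the difference of their changes against normoxia.

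Among the 10 droplet genes, 24 h and 6 h differed for HILPDA (1.05, adjusted p = 0.0152), PLIN2 (0.79, adjusted p = 0.0016), FABP5 (1.04, adjusted p = 0.00148), LPIN1 (-0.89, adjusted p = 0.00673) and PLIN4 (-1.10, adjusted p = 0.0467). The libraries that end the HILPDA and PLIN4 calls are named with the report of that comparison.

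Among the other genes of fatty acid storage and use, 24 h and 6 h differed for LPIN3 (-1.29), DGAT1 (0.83), DGAT2 (-0.59), SOAT1 (-0.41), AUP1 (0.78), LRP8 (-0.96), HADHA (1.01) and HADHB (0.42), with adjusted p from 0.000353 for HADHA to 0.044 for DGAT2. Between 24 h and 12 h, LPIN3 (-1.68), AUP1 (0.53), ACACB (-0.95), CPT1B (-1.54) and HADHA (0.58) differed, with adjusted p from 0.00123 for LPIN3 to 0.0424 for ACACB. LPIN1 and its paralogue LPIN3 were thus both lower at 24 h than at 6 h, although LPIN1 was above and LPIN3 below its normoxic level at both times.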

How the results depend on the processing

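Over all alternatives, 825 of the members' values kept direction and side of the threshold, 42 lost and 23 gained a call, and 22 changed sign. For the named pathway genes these numbers were 1170, 45, 11 and 19. Library size alone, which moves the median gene down, left 3 members higher at 6 h and 3 higher and 2 lower at 24 h, and between 24 h and 6 h 0 higher and 4 lower. Pathway genes were then 7 higher at 6 h, 2 higher and 32 lower at 12 h, and 2 higher and 43 lower at 24 h. With at least 10 counts in every library PLIN4 was not tested, which left 0 members lower at 6, 12 and 24 h and 1 lower between 24 h and 6 h. Members higher at 12 h than 6 h were 1 with DESeq2 and 1 without a low-count filter. Those higher at 24 h than 12 h were 2 with DESeq2 and 1 with median-of-ratios size factors. Members lower at 24 h than 6 h were 1 with limma-voom and 0 with only the 2 groups compared, a fit that gave 20 pathway genes higher and 29 lower at 12 h. The cause of these moves was not tested.

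Signs that changed under library size alone were, for 24 h against 12 h, HILPDA (-0.17), PLIN3 (-0.37) and VLDLR (-0.36), and for 24 h against 6 h, PLIN3 (-0.58) and VLDLR (-0.31). Against normoxia they were PNPLA2 at 6 h (-0.13) and 12 h (-0.36), VLDLR at 24 h (-0.050), ABHD5 at 12 h (-0.10) and 24 h (-0.10), ACSL4 (-0.012), HADHB (-0.045) and SOAT1 (-0.22) at 24 h, DGAT1 at 6, 12 and 24 h (-0.17, -0.060 and -0.042), FADS2 at 12 and 24 h (-0.042 and -0.38) and MGLL at 12 h (-0.41). VLDLR between 24 h and 12 h, at 0.0055 in the fit reported, was also negative with limma-voom (-0.056), no filter (-0.085), at least 10 counts (-0.030) and only 2 groups (-0.020). PLIN3 between 24 h and 6 h was -0.012 without a filter, and MGLL at 12 h was -0.043 with at least 10 counts.

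Leaving out 1 library gave 0 to 2 members higher and 0 to 1 lower at 12 h against 6 h, 0 to 1 higher and 0 to 2 lower at 24 h against 12 h, and 1 to 3 lower at 24 h against 6 h. Pathway genes at 12 h ranged from 9 to 19 higher and 11 to 26 lower, and the PLIN2 share difference from -9.54 to -7.69 points. Values that changed sign spanned -0.14 to 0.046 (PLIN3, 12 h against 6 h), -0.15 to 0.34 (PLIN3, 24 h against 12 h), -0.20 to 0.26 (PLIN3, 24 h against 6 h), -0.26 to 0.019 (PNPLA2, 12 h against 6 h), -0.66 to 0.41 (VLDLR, 24 h against 12 h), -0.46 to 0.62 (VLDLR, 24 h against 6 h), and against normoxia -0.27 to 0.070 and -0.33 to 0.048 (LRP8, 6 and 12 h) and -0.062 to 0.070 and -0.018 to 0.12 (MGLL, 6 and 12 h).

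Deviations of samples with the same replicate number correlated at -0.16 to 0.21, over 0.1 in 2 of 15 pairs. Those with different numbers correlated at -0.27 to 0.28, over 0.1 in 3 of 30 pairs. With 2 or 3 libraries per group this check shows no pairing by number but cannot exclude it. The replicate block left 1 member lower between 24 h and 6 h and turned VLDLR between 24 h and 12 h to -0.021. Low counts limit PLIN5, G0S2, PLIN4 at 24 h and VLDLR.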
